A study of Mus musculus with 18 samples.

Results

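A set of 8 genes of the mouse 2-cell stage was examined in pluripotent cells kept by induced reprogramming factors or by 2iL medium. They were Zscan4b, Zscan4c, Zscan4d, Zscan4e, Zscan4f, Tcstv1, Tcstv3 and Zfp352, chosen by gene name, and they made up 8 of the 55469 genes used from the files. The files list 9 copies of Zscan4, of which 5 are among these genes, and 2 copies of Tcstv.

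The study asked whether OSKM (Oct4, Sox2, Klf4 and c-Myc) alone can hold mouse cells in a pluripotent state in N2B27, a basal medium free of serum. One Tet-On-OSKM/Oct4-GFP line of embryonic stem cells (ESCs) was derived in 2iL, which is N2B27 with the MEK inhibitor PD0325901, the GSK3 inhibitor CHIR99021 and LIF. Cells were then kept in 2iL (2iL-ESCs) or moved to N2B27 with doxycycline, DOX (OSKM-ESCs), and sampled at days 18, 25 and 38 with 2 libraries per medium and day. Tet-On-OSKM fibroblasts were reprogrammed into OSKM-iPSCs, of which clones 1 and 3 were sequenced at passages 7 and 6, and 2iL-iPSCs, of which clones 3 and 6 were sequenced at passages 2 and 3, beside 2 libraries of the MEF cells (mouse embryonic fibroblasts) at passage 4.

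The iPSCs and MEF cells were of the strain (C57BL/6 x 129S4/SvJae)F1, and the ESCs came from that strain crossed with (CBA/CaJ X C57BL/6J)F2. All ESC and iPSC groups carried the inducible OSKM cassette with its transactivator, so OSKM-ESCs and 2iL-ESCs differed in DOX and in the 2iL components at the same time, and these cannot be told apart. The ESCs were a single line, derived and then kept in 2iL on feeder MEF cells. For reprogramming, the fibroblasts were plated on feeder cells too. The sources disagree on the daily medium of the 2iL-iPSCs: it is N2B27 with DOX in the sample labels, and 2iL without DOX in the study's methods. The clones are named here as the labels name them. By the study's methods, medium and passage moved together in the iPSCs and cannot be told apart. By the labels, the 2iL-iPSCs would be in the daily medium that the methods give for OSKM-iPSCs. Statements below on the media of the clones follow the methods.

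Zscan4 genes encode proteins with a SCAN domain and zinc fingers. They are transcribed in a burst in the 2-cell embryo when the mouse genome is first activated, and in ESC cultures they come on briefly in a small fraction of cells. Zscan4 is known for its part in lengthening telomeres and in genome stability, Tcstv1 and Tcstv3 (2-cell-stage variable group) lie in the same burst, and Zfp352 encodes a zinc finger protein transcribed at the same stage.

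The 5 Zscan4 genes belonged to a cluster of 9 copies on chromosome 7 of GRCm38, spanning 819.9 kb from position 10794242 to 11614112. Zscan4b (10900740 to 10905050), Zscan4d (11161374 to 11166159) and Zscan4e (11306378 to 11310682) were annotated on the minus strand, and Zscan4c (11005745 to 11010547) and Zscan4f (11397915 to 11402318) on the plus strand. Tcstv1 (119893388 to 119894785, minus strand) and Tcstv3 (120316878 to 120318178, plus strand) lay 422.1 kb apart on chromosome 13, and Zfp352 (90218820 to 90225702, plus strand) lay on chromosome 4. GENCODE M21 gave all 8 the same coordinates and called them protein-coding, and no other listed gene overlapped any of them.

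The Zscan4 promoters are shown because they bear on how far the copies can be separated and on what they share upstream. RefSeq held a promoter for 5 of the 8 genes (GRCm38.p6). The 250 bases before the RefSeq start of 4 Zscan4 genes follow, written 5′ to 3′ on the strand of the gene, from chr7:10905051-10905300 (minus strand), chr7:11005495-11005744 (plus), chr7:11166149-11166398 (minus) and chr7:11397665-11397914 (plus). Capitals mark TGATTCA, the first letters of the motif of the 2-cell-stage activator Dux, GTGTGA, the core of the T-box factor motif, and TATAAA, the TATA box.
Zscan4b: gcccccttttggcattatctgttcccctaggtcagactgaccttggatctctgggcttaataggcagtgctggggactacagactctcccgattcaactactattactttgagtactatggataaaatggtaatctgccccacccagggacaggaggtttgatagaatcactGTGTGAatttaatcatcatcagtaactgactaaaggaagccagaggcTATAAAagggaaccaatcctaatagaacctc
Zscan4c: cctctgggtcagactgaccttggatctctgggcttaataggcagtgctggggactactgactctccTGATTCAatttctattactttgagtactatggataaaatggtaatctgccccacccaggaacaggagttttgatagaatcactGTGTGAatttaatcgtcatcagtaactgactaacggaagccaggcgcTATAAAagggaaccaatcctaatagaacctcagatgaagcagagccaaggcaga
Zscan4d: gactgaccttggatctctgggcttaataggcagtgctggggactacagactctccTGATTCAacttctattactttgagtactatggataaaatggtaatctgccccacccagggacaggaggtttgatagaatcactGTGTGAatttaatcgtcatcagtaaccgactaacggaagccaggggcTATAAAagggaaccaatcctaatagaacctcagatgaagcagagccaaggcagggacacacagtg
Zscan4f: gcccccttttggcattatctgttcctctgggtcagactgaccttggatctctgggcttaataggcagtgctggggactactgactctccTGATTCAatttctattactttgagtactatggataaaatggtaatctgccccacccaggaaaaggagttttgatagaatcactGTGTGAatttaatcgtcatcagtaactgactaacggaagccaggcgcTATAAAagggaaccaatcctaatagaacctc

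Over the 6 pairs of these promoters, 216 to 250 bases aligned with 94.7% to 99.6% identity. All 4 held GTGTGA, with TATAAA 47 bases further on. The letters TGATTCA were found in Zscan4c, Zscan4d and Zscan4f, 83 bases before GTGTGA, and not in Zscan4b. Searched on both strands, TATAAA was present in 12.4% of the 32851 RefSeq promoter windows of the same length, GTGTGA in 12.3% and TGATTCA in 2.43%, and no marked motif overlapped another. The Zfp352 window held none of the 3, and no window of these genes held TGCACAC (a motif of Zscan4 itself, in 3.67% of windows) or ATGCAAA (the octamer bound by Oct4, in 4.12%). The motifs were chosen for this description and mark letters, not occupied sites.

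The transcripts of the Zscan4 copies were nearly the same. The longest transcripts of the 5 genes were 96.6% to 99.7% identical over 1722 to 2270 aligned bases, whereas Tcstv1 and Tcstv3 were 94.4% identical over 640 aligned bases. Among 100-base windows of the longest transcript, the share found in no other gene's transcripts was 10.5% for Zscan4f, 15.9% for Zscan4e, 21.3% for Zscan4b, 27.2% for Zscan4c and 70.4% for Zscan4d. For Tcstv1, Tcstv3 and Zfp352 the share was 95.9%, 92.2% and 99.4%. The authors kept uniquely mapped reads, so the level of a single copy rests on the part of its transcript that is unique, which was small for the Zscan4 copies other than Zscan4d. The summed FPKM of the 5 copies, called the Zscan4 sum, was used beside the single values. FPKM is a fragment count scaled to transcript length and library size. Reads dropped because they matched several copies are missing from the sum as well.

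In the medium comparison, the Zscan4 sum stood near 0 in every OSKM library and between 11.3 and 73.3 FPKM in every 2iL library. In OSKM-ESCs the Zscan4 sum was 0.400 and 0.228 FPKM at day 18, 0.806 and 1.25 FPKM at day 25, and 0.0549 and 0.0315 FPKM at day 38. In 2iL-ESCs it was 34.5 and 34.1 FPKM at day 18, 17.4 and 14.9 FPKM at day 25, and 13.9 and 11.3 FPKM at day 38. The groups did not overlap, and the highest OSKM-ESC library stayed below the lowest 2iL-ESC library at 11.3 FPKM.

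**Figure D1:**
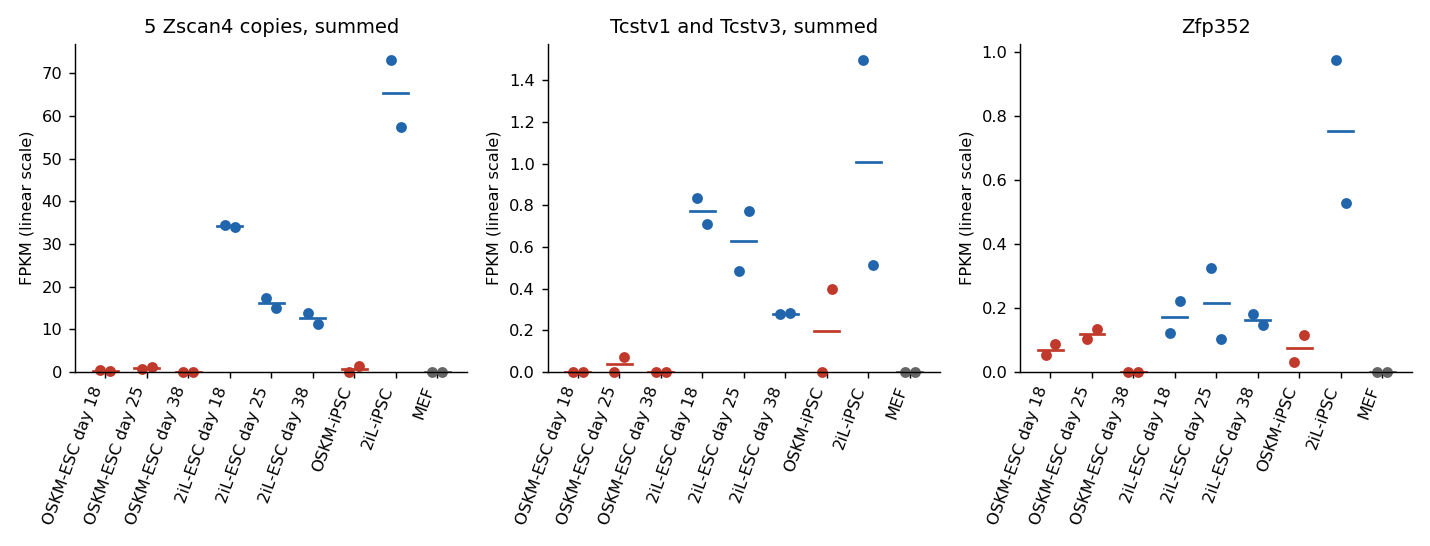
FPKM on a linear scale (y axis) of the Zscan4 sum, the Tcstv sum and Zfp352 in each of the 18 libraries (points) by condition (x axis), with the mean of the 2 libraries as a line (red OSKM, blue 2iL, grey MEF). The 8 2iL libraries sit between 11.3 and 73.3 FPKM for the Zscan4 sum, and the 8 OSKM libraries at or below 1.35 FPKM.

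Across the 3 days the Zscan4 sum averaged 0.462 ± 0.481 FPKM in OSKM-ESCs and 21.03 ± 10.4 FPKM in 2iL-ESCs (SD, n = 6 libraries each), a 45.5-fold difference of means. The fold was 69.2 without OSKM-ESC day 25 replicate 2, the highest OSKM-ESC library, and by day it was 109 at day 18, 15.7 at day 25 and 293 at day 38. On the log2(FPKM + 1) scale, which understates folds of genes near 0, the sum was lower in OSKM-ESCs by a log2 fold change of -3.85 (SE 0.22, limma adjusted p = 6.2e-08). An exact 2-sided permutation test over the 12 libraries gave p = 0.0022, the smallest that 6 against 6 libraries allow, and with labels permuted within days p = 0.0093, also the smallest possible. RNA was measured in whole cultures, so fewer cells in the Zscan4-positive state and less RNA per such cell cannot be told apart. No source states that same-day libraries came from separate cultures, so p-values measure the spread between these libraries, which may be technical.

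Each of the 5 Zscan4 genes showed the same separation. Zscan4c, the copy with the largest fold change on the log2 scale, was listed at 0 in 3 OSKM-ESC libraries and reached 0.306 FPKM at most, whereas in 2iL-ESCs it measured 8.09 and 8.45 FPKM at day 18, 5.17 and 4.93 FPKM at day 25, and 3.30 and 2.95 FPKM at day 38. Its log2 fold change over all days was -2.49 (SE 0.16, limma adjusted p = 1.9e-07).

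Zscan4f, with 6 values of 0 to 0.358 FPKM in OSKM-ESCs, measured 9.69 and 8.25 FPKM, 4.91 and 3.58 FPKM, and 3.56 and 3.11 FPKM in 2iL-ESCs at days 18, 25 and 38 (log2 fold change -2.45, SE 0.18, limma adjusted p = 4.8e-07). Zscan4d went from at most 0.271 FPKM in OSKM-ESCs to 7.65 and 7.85 FPKM, 2.51 and 2.61 FPKM, and 2.80 and 1.78 FPKM in 2iL-ESCs at the same days (log2 fold change -2.11). Zscan4e went from at most 0.330 FPKM to 6.65 and 6.47 FPKM, 3.58 and 2.56 FPKM, and 2.97 and 2.60 FPKM (log2 fold change -2.08). For all 3 copies the groups were apart at each day.

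Zscan4b had the lowest level of the 5 copies in every 2iL library. It was listed at 0 in 5 of 6 OSKM-ESC libraries, with 0.0445 FPKM in the other, and measured 2.39 and 3.06 FPKM, 1.27 and 1.24 FPKM, and 1.30 and 0.884 FPKM in 2iL-ESCs at days 18, 25 and 38 (log2 fold change -1.36, SE 0.14, limma adjusted p = 7.4e-06). Even its lowest 2iL-ESC library was above its highest OSKM-ESC library.

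Of the 8 genes, 5 passed the filter of the fit (FPKM over 1 in at least 1 library), each through 2iL-ESC libraries only, and these 5 were called lower in OSKM-ESCs over all days and at each of days 18, 25 and 38. Among all genes tested, 24.4% were called lower over all days, 17.7% at day 18, 25.3% at day 25 and 25.2% at day 38. Every OSKM-ESC library was below every 2iL-ESC library for the 5 at each day too, as for 31.2% of genes tested at day 18, 41.1% at day 25 and 34.6% at day 38. Since only the high group let them into the fit, their count is a description of the members and no support for it. With the filter lowered to FPKM over 0 in a library, all 8 genes were tested and called lower over all days, against 13.9% of 28161 genes. The 12 libraries were fully apart by medium for 6 of the 8 genes (the Zscan4 copies and Tcstv1), against 7.13% of those 28161. Among the 14016 genes over 1 FPKM in a library, 1685 were fully apart in this direction. Tcstv1, at 0 in all 6 OSKM-ESC libraries, still entered through 2iL-ESC libraries only, so these counts too are descriptions.

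Tcstv1 and Tcstv3 were at the edge of detection and never exceeded 1 FPKM in a library. Tcstv1, listed at 0 in all 6 OSKM-ESC libraries, measured 0.535 and 0.712 FPKM at day 18, 0.344 and 0.169 FPKM at day 25, and 0.150 and 0.0753 FPKM at day 38 in 2iL-ESCs. Tcstv3 was listed at 0 in 5 OSKM-ESC libraries and at 0.0727 FPKM in the other, and in 2iL-ESCs it measured 0.302 and 0 FPKM, 0.143 and 0.604 FPKM, and 0.129 and 0.207 FPKM at the 3 days. Tcstv1 was apart between media, while Tcstv3 overlapped at 0.

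The Tcstv sum, their summed FPKM, was 0.0121 ± 0.0297 FPKM in OSKM-ESCs and 0.562 ± 0.248 FPKM in 2iL-ESCs (SD, n = 6 libraries each). All 6 OSKM-ESC libraries, at 0.0727 FPKM or less, were below the lowest 2iL-ESC library at 0.279 FPKM, and the exact 2-sided permutation test gave p = 0.0022 over the 12 libraries and p = 0.0093 within days, both the smallest possible. Zfp352 measured 0 to 0.133 FPKM in OSKM-ESCs and 0.104 to 0.324 FPKM in 2iL-ESCs (means 0.0627 ± 0.0549 and 0.182 ± 0.0812 FPKM, SD, n = 6), and the exact permutation test gave p = 0.0087 over the 12 libraries and p = 0.019 within days. These 3 features, each tested both ways, were all that were permuted. Its groups overlapped at day 25, where the OSKM-ESCs had 0.104 and 0.133 FPKM and the 2iL-ESCs 0.324 and 0.104 FPKM.

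The depth behind these values is unknown in reads. Coverage, the mean number of reads over each base of the gene, was 4.81 to 49.1 for the Zscan4 copies in 2iL-ESCs and 0 to 1.81 in OSKM-ESCs, with 15 of the 30 OSKM-ESC values at 0. For the Tcstv genes in 2iL-ESCs it was 0 to 2.80 and for Zfp352 0.485 to 1.75, so the values of these 3 genes rest on few reads.

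**Figure D2:**
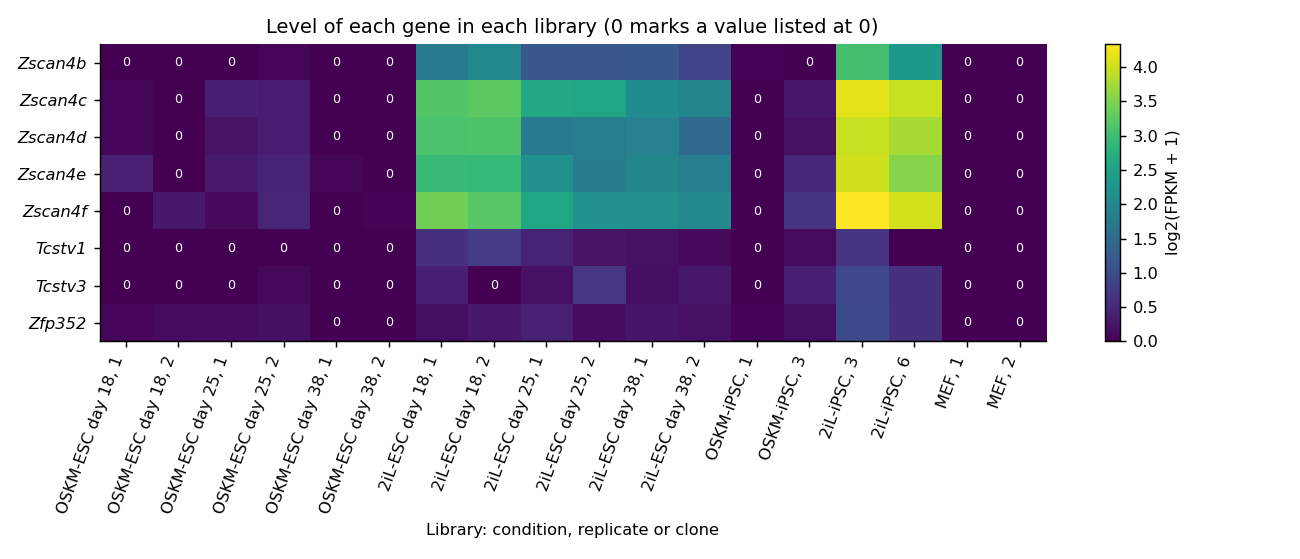
Level of each of the 8 genes (rows) in each of the 18 libraries (columns) as log2(FPKM + 1), from dark (0) to yellow, with 0 written where a value is listed at 0. The 5 Zscan4 rows are bright in the 8 2iL columns and dark in the 8 OSKM columns, and the 16 MEF values are all 0.

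Among days, the Zscan4 sum of 2iL-ESCs was highest at day 18, 2.12-fold above day 25 and 2.71-fold above day 38. The levels of days 25 and 38 differed by 1.28-fold and their libraries did not overlap, at 14.9 and 17.4 FPKM against 11.3 and 13.9 FPKM. The sum varied with day in 2iL-ESCs (limma F-test, adjusted p = 0.00086), and so did each of the 5 Zscan4 genes, with adjusted p between 0.00069 (Zscan4c) and 0.010 (Zscan4b). Of all genes tested within 2iL-ESCs, 50.8% were called. Tcstv1 had the same order of days, from a mean of 0.623 FPKM at day 18 to 0.113 FPKM at day 38, without a test.

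In OSKM-ESCs the order of days was a different one, with the highest Zscan4 sum at day 25 (1.03 ± 0.317 FPKM), a lower one at day 18 (0.314 ± 0.122 FPKM) and the lowest at day 38 (0.0432 ± 0.0166 FPKM; SD, n = 2 libraries). None of the 8 genes passed the filter here, and 38.6% of genes tested were called. The sum itself exceeded 1 FPKM only in day 25 replicate 2, so it entered the fit through the day where it was high, and without that library it was not tested. It was called (limma F-test, adjusted p = 0.017, and 0.036 when genes down to 0 FPKM were tested), but this call was lost without either day 38 library (adjusted p = 0.059 without replicate 1 and 0.060 without replicate 2) and when all 9 conditions were fitted together (adjusted p = 0.055). Zfp352 followed the same order, at 0.118, 0.0699 and 0 FPKM.

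The difference between media changed with the day. On the log2 scale the Zscan4 sum was lower in OSKM-ESCs by -4.75 (SE 0.13) at day 18, -3.09 (SE 0.16) at day 25 and -3.70 (SE 0.13) at day 38, and the interaction of medium and day was called (limma adjusted p = 0.00068). The order of days 18 and 38 turned with a pseudocount of 0.1, at -6.41, -3.87 and -6.47 for the 3 days, as it did in the ratios of means, while day 25 had the smallest difference each way. The 5 tested members were called as well, as were 37.9% of all genes tested. With a pseudocount of 0.1 in place of 1, Zscan4c and Zscan4d stayed called (limma adjusted p = 0.0016 and 0.0026) and the other 3 did not.

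In iPSCs the Zscan4 genes had their highest levels of the series in 2iL clones. The Zscan4 sum was 0.0253 FPKM in OSKM-iPSC clone 1 and 1.35 FPKM in clone 3, against 73.3 FPKM in 2iL-iPSC clone 3 and 57.5 FPKM in clone 6. The OSKM and 2iL clones did not overlap. The difference was a log2 fold change of -5.41 (SE 0.41, limma adjusted p = 0.0086). Its call was lost when genes down to 0 FPKM were tested (limma adjusted p = 0.12), where no gene was called. It was also lost without either 2iL-iPSC clone. Those fits leave 1 clone in a group, and the loss was not particular to the Zscan4 sum.

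The 5 Zscan4 genes were called lower in OSKM-iPSCs, with log2 fold changes from -2.67 (Zscan4b) to -3.92 (Zscan4c), as were 2.96% of all genes tested. Here too they passed the filter through the 2iL clones only, so the count is a description. All 5 calls were lost under the same 3 changes. Both OSKM clones were below both 2iL clones for 7 of the 8 genes, all but Tcstv1. The same held for 5112 of 25331 genes over 0 FPKM in a clone. Among the genes tested, which leave out Tcstv3 and Zfp352, it held for 25.4%. Zscan4f was listed at 0 and measured at 0.582 FPKM in the OSKM clones, against 19.2 and 15.5 FPKM in the 2iL clones. Zscan4c had 0 and 0.216 FPKM against 16.8 and 14.7 FPKM. In both genes OSKM-iPSC clone 3 was the higher of the OSKM clones and remained far below either 2iL clone.

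Tcstv1 measured 0 and 0.0945 FPKM in OSKM-iPSC clones 1 and 3 and 0.566 and 0.00701 FPKM in 2iL-iPSC clones 3 and 6, and Tcstv3 measured 0 and 0.302 FPKM against 0.934 and 0.507 FPKM. The Tcstv1 values overlapped and those of Tcstv3 did not. Their sum was not called (log2 fold change -0.72, SE 0.39, limma adjusted p = 0.28), although it was in the fit of all 9 conditions (limma adjusted p = 0.013). Zfp352 measured 0.0319 and 0.115 FPKM in the OSKM clones and 0.975 and 0.527 FPKM in the 2iL clones, which did not overlap, and it was too low to be tested. With 2 clones against 2, an exact permutation test cannot go below p = 0.33.

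By mean Zscan4 sum, the 9 conditions ran from 2iL-iPSCs (65.4 ± 11.1 FPKM) through 2iL-ESCs of day 18 (34.3 ± 0.275 FPKM), day 25 (16.2 ± 1.79 FPKM) and day 38 (12.6 ± 1.84 FPKM) to OSKM-ESCs of day 25, OSKM-iPSCs (0.690 ± 0.940 FPKM), OSKM-ESCs of day 18 and of day 38, and MEF cells (SD, n = 2 libraries each). Each neighbour in this order was apart from the next by its 2 values, except that OSKM-iPSCs overlapped with the OSKM-ESCs of days 25 and 18. All 8 genes were listed at 0 in both MEF libraries. For the Tcstv sum and Zfp352, most neighbours overlapped, with 2iL-iPSCs first in both orders.

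The share of each copy in the Zscan4 sum was not constant over the 8 2iL libraries. From day 18 to day 25 of 2iL-ESCs, the mean of Zscan4d went from 7.75 to 2.56 FPKM and that of Zscan4c from 8.27 to 5.05 FPKM. Zscan4f made up 24.0% to 28.2% of the summed FPKM, Zscan4c 22.9% to 33.1%, Zscan4e 17.2% to 23.0%, Zscan4d 14.4% to 23.0% and Zscan4b 6.94% to 10.0%. Zscan4f, with the fewest unique windows, had the highest median share (26.6%), and Zscan4d, with the most, had a median share of 20.1%. Across those 8 libraries the log2 level of each Zscan4 gene followed the sum of the other 4 with Pearson r between 0.97 and 0.99, while r with the Zscan4 sum was 0.41 for Tcstv1, 0.52 for Tcstv3 and 0.77 for Zfp352. The points share conditions and clones, and these r values are descriptions.

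**Figure D3:**
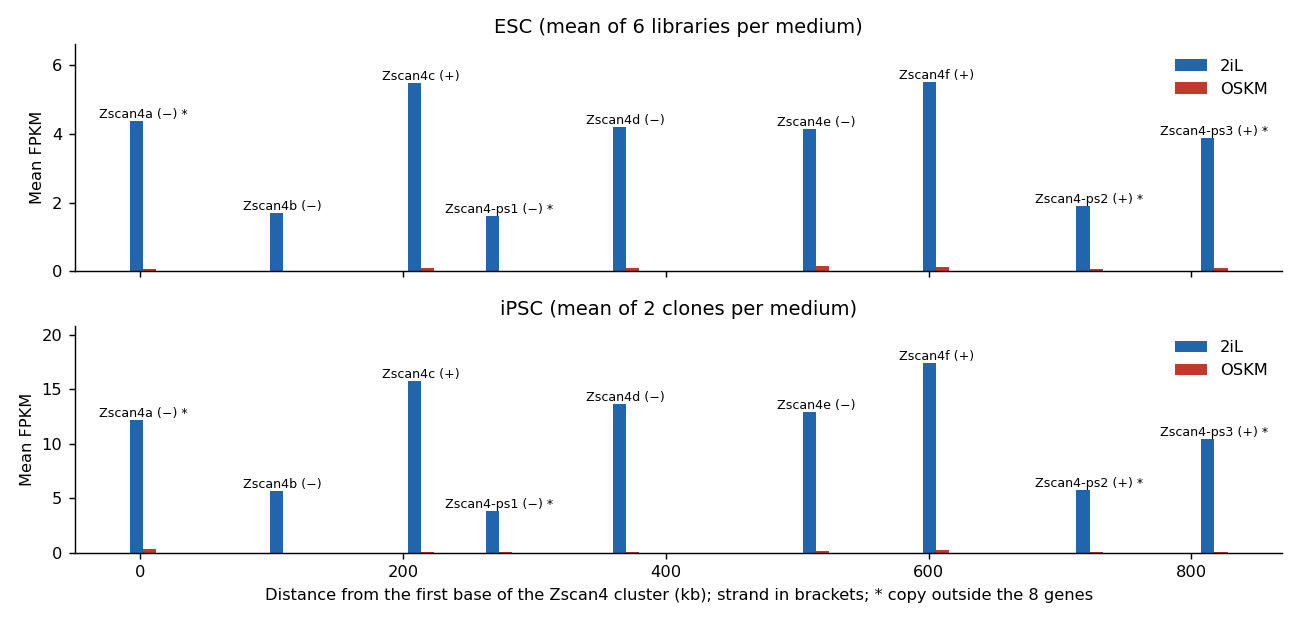
Mean FPKM (y axis) of the 9 listed Zscan4 copies by their distance from the first base of the cluster in kb (x axis), in ESCs (top, mean of 6 libraries per medium) and iPSCs (bottom, mean of 2 clones), blue for 2iL and red for OSKM. All 9 copies, on both strands and along the whole 819.9 kb, are higher in 2iL, and the OSKM bars are close to 0.

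The 4 Zscan4 copies outside the 8 genes (Zscan4a, Zscan4-ps1, Zscan4-ps2 and Zscan4-ps3) held 30.8% to 39.5% of the summed FPKM of the 9 copies in 2iL libraries. Together they measured 0 to 0.847 FPKM in OSKM-ESCs and 6.57 to 19.8 FPKM in 2iL-ESCs, without overlap. With all 9 copies summed, the means were 0.716 ± 0.811 FPKM in OSKM-ESCs and 32.8 ± 16.3 FPKM in 2iL-ESCs (SD, n = 6 libraries each). The nearest genes over 1 FPKM in a pluripotent library on either side of the cluster were not called: Zik1, 298.8 kb before it, measured 3.64 ± 0.879 and 3.72 ± 0.549 FPKM in OSKM-ESCs and 2iL-ESCs (SD, n = 6; limma adjusted p = 0.78), and Zfp551, 801.0 kb after it, 0.761 ± 0.190 and 0.922 ± 0.200 FPKM (limma adjusted p = 0.35).

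Other genes of the 2-cell-stage burst were mostly low in OSKM-ESCs. Of 43 other genes listed for this stage, 39 were in the files, 17 were tested over all days, 15 of these through 2iL-ESC libraries only, and 16 were called lower in OSKM-ESCs, against 24.4% of all genes. The filter largely fixed this direction, so the count is a description. Duxbl1, a Dux-like homeobox gene that was over 1 FPKM in OSKM-ESC libraries only, was called higher (log2 fold change 0.41, limma adjusted p = 0.017, against 29.5% of all genes called higher). The median log2 fold change of the 17 was -1.34, beside 0.03 over all genes tested. Calcoco2, an autophagy receptor, had 0.154 to 1.87 FPKM in OSKM-ESCs and 15.3 to 34.3 FPKM in 2iL-ESCs (log2 fold change -3.68), Gm5662 0 to 0.222 against 2.46 to 6.39 FPKM (-2.38), Pramel6, a PRAME-like gene, 0 to 0.0265 against 2.25 to 6.32 FPKM (-2.28), and Zscan4a 0 to 0.200 against 2.32 to 7.09 FPKM (-2.24). None of these 4 overlapped between media. In iPSCs, 15 of 24 tested were called lower, against 2.96% of all genes, and 19 of the 24 were over 1 FPKM in 2iL clones only.

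The 10 genes outside the members most like the Zscan4 sum, by Pearson r of log2(FPKM + 1) over the 16 libraries without MEF cells, were Dazl (an RNA-binding protein of germ cells), 4930526L06Rik, Zscan4a, Gm21939, Zscan4-ps3, Gm12794, Myo1f (an unconventional myosin), Ak7 (an adenylate kinase), Gm5662 and H2-M5 (an MHC class I gene), with r from 0.98 to 0.99 among 14616 genes. A difference between media of this size gives a high r to any gene with the same 2 levels, and 385 genes had r over 0.9. Dazl measured 0.104 to 1.47 FPKM in OSKM libraries and 6.67 to 36.1 FPKM in 2iL libraries. Only 2 of the 10 stayed in the first 10 when the 12 ESC libraries were used, and Dazl was then at place 11.

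Known activators of these genes differed between media to unequal degrees and not in 1 direction at every day. Duxf3, of the Dux family that switches on the 2-cell-stage burst, was too low to be tested, at 0 in 5 OSKM-ESC libraries and 0.0270 FPKM in the other, against 0.0578 to 0.163 FPKM in 2iL-ESCs. Of 6 tested activators, 4 were called lower in OSKM-ESCs over all days, against 24.4% of all genes, and 2 were not called, with a median log2 fold change of -1.12. Tbx3, a T-box factor, measured 0.487 and 0.919 FPKM, 0.809 and 1.10 FPKM, and 0.600 and 0.500 FPKM in OSKM-ESCs at days 18, 25 and 38, and 13.9 and 17.8 FPKM, 46.8 and 48.2 FPKM, and 23.5 and 22.2 FPKM in 2iL-ESCs (log2 fold change -3.96, SE 0.18, limma adjusted p = 1.0e-08). The media were apart, and in 2iL-ESCs Tbx3 was highest at day 25.

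Dppa3 (Stella, a maternal factor of the early embryo) measured 8.20 to 13.8 FPKM in OSKM-ESCs and 35.5 to 46.0 FPKM in 2iL-ESCs (log2 fold change -1.81, SE 0.11, limma adjusted p = 1.1e-07). Dppa2 and Dppa4, partner proteins that bind the Dux locus, overlapped between media over the 3 days, at 7.03 to 41.1 against 34.7 to 89.0 FPKM and at 29.0 to 81.0 against 57.5 to 121.5 FPKM. Their log2 fold changes were -1.48 (SE 0.33, limma adjusted p = 0.0022) and -0.76 (SE 0.25, limma adjusted p = 0.022), and the call of Dppa4 was lost without any 1 of the 4 day 38 libraries. At day 25 Dppa4 was called higher in OSKM-ESCs (77.8 against 58.6 FPKM, log2 fold change 0.40, limma adjusted p = 0.015, against 20.7% of all genes called higher), and Dppa2 was not called (37.0 against 36.1 FPKM, log2 fold change 0.03, limma adjusted p = 0.88). Nelfa (a subunit of the NELF pausing complex) and Nfya (a subunit of the CCAAT-binding factor NF-Y) were not called, at log2 fold changes of -0.15 and -0.10 (limma adjusted p = 0.092 and 0.23). In iPSCs only Tbx3 of these was called (0.537 and 0.872 FPKM against 27.4 and 21.4 FPKM, log2 fold change -3.89), and Dppa3 measured 38.7 ± 18.6 FPKM in OSKM clones and 38.8 ± 6.02 FPKM in 2iL clones (SD, n = 2, log2 fold change -0.08). By mean level in 2iL-ESCs, Dppa2, Dppa3, Dppa4 and the Zscan4 sum were highest at day 18, Tbx3 and Nelfa at day 25, and Nfya at day 38. Duxf3, too low to be tested, was also highest at day 18 in 2iL-ESCs, at 0.163 and 0.155 FPKM. It measured 0.0683 and 0.0829 FPKM at day 25, and 0.0578 and 0.0757 FPKM at day 38. Its only OSKM-ESC value over 0 was at day 25 (0.0270 FPKM). In OSKM-ESCs, Tbx3, Dppa2, Dppa4, Nelfa and the Zscan4 sum were highest at day 25, and Dppa3 and Nfya at day 38. Whether these day orders are related was not tested.

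**Figure D4:**
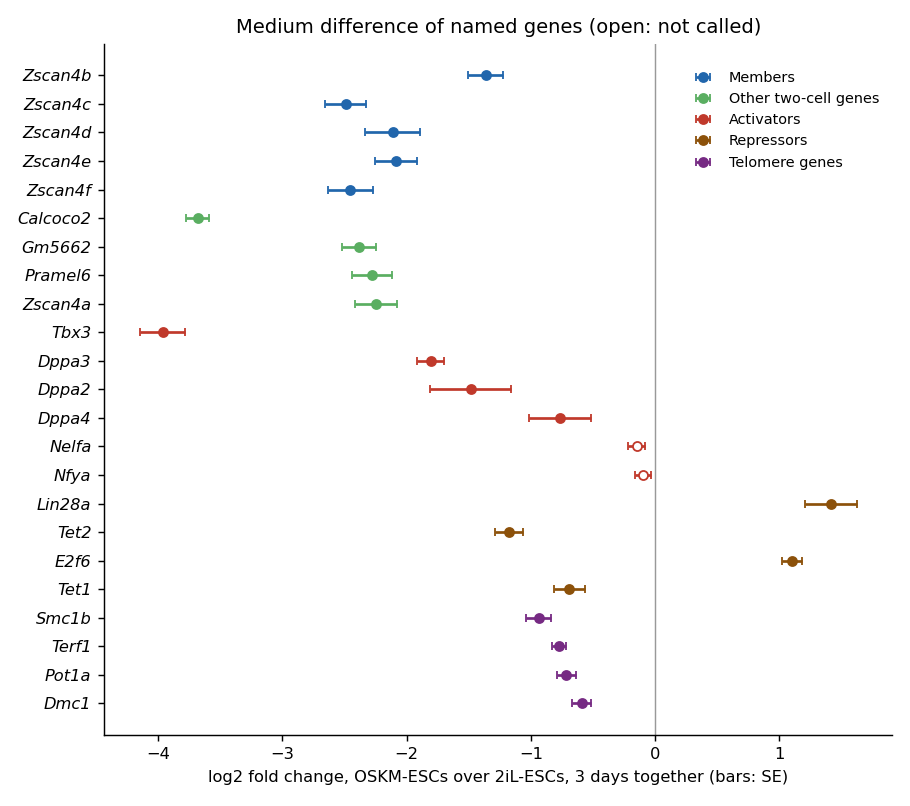
Log2 fold change of log2(FPKM + 1) in OSKM-ESCs over 2iL-ESCs with the 3 days together (x axis; bars are SE) for the 5 tested Zscan4 genes and the named genes of 4 other lists (y axis), filled where the limma adjusted p is under 0.05 and open where it is not. The Zscan4 genes lie between -2.49 and -1.36, Tbx3 and Calcoco2 further left, and Lin28a and E2f6 to the right of 0. This scale understates folds of genes near 0, so the positions do not rank genes of unlike level by fold.

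Of 26 tested genes known to hold the 2-cell-stage burst down, 13 were called lower, 7 higher and 6 neither in OSKM-ESCs over all days (median log2 fold change -0.20), beside 24.4% lower and 29.5% higher among all genes. Lin28a, an RNA-binding protein, was higher at 155 ± 25.5 FPKM against 60.1 ± 21.6 FPKM (log2 fold change 1.42), and E2f6, a subunit of a variant Polycomb complex, at 25.9 ± 4.57 against 11.4 ± 0.622 FPKM (1.10). Tet2 and Tet1, which oxidise methylated cytosine, were lower at 5.29 ± 0.568 against 13.4 ± 2.63 FPKM (-1.18) and 22.0 ± 7.30 against 35.3 ± 7.10 FPKM (-0.69; SD, n = 6 libraries each throughout). All 4 passed the limma test, with adjusted p of at most 0.00066.

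Of 15 tested genes of telomere maintenance, the process Zscan4 is known for, 11 were called lower, 1 higher (Pot1b) and 3 neither, beside 24.4% lower and 29.5% higher among all genes. Their median log2 fold change was -0.35. Smc1b, the meiotic cohesin subunit, measured 0.0581 to 0.165 FPKM in OSKM-ESCs and 0.750 to 1.36 FPKM in 2iL-ESCs (log2 fold change -0.94). It lay near the pseudocount of 1, its log2 fold change reached -2.56 over the alternatives, and it was the 1 gene tested through 2iL-ESC libraries only. Terf1, which binds the telomere repeat, was lower at 40.2 ± 5.25 against 69.1 ± 6.61 FPKM (-0.77), Pot1a, which binds the single-stranded end, at 11.8 ± 1.97 against 19.8 ± 0.454 FPKM (-0.71), and Dmc1, a meiotic recombinase, at 5.39 ± 1.61 against 8.62 ± 2.22 FPKM (-0.59; SD, n = 6 each). Their limma adjusted p were at most 6.0e-05. In iPSCs none of the 15 was called.

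Markers of other cells moved with the medium as well. Of 12 fibroblast markers, 9 were tested, 6 of them through OSKM-ESC libraries only, and 8 were called higher in OSKM-ESCs, against 29.5% of all genes. Their summed FPKM was 0.967% to 1.67% of the MEF mean in OSKM-ESCs, 0.180% to 0.304% in 2iL-ESCs, 4.00% in OSKM-iPSC clone 1, 0.288% in OSKM-iPSC clone 3 and 0.172% to 0.227% in 2iL-iPSCs. Each of the 12 had a value over 0 in some OSKM-ESC library, and the 8 genes were at 0 in MEF cells. Of 8 primitive endoderm markers, 5 were tested, 4 of them through OSKM-ESC libraries only. Of the 5, 3 (Dab2, Foxa2 and Pdgfra) were called higher in OSKM-ESCs and 2 were not called, against 29.5% of all genes called higher. The summed FPKM of the 8 ranged from 3.13 to 12.1 in OSKM-ESCs, from 1.07 to 5.10 in 2iL-ESCs and from 77.1 to 80.6 in MEF cells. Dab2 and Pdgfra averaged 36.4 and 35.1 FPKM in MEF cells, so neither is particular to primitive endoderm here. The part of such other cells in the result was not tested. The 8 markers of pluripotent cells, all detected in every ESC and iPSC group, summed to 1268 to 1892 FPKM in OSKM-ESCs and 2869 to 3293 FPKM in 2iL-ESCs. Of these 8 markers, 6 were called lower in OSKM-ESCs over all days, 1 higher and 1 neither. Among all genes, 24.4% were called lower and 29.5% higher. The median log2 fold change of the 8 markers was -1.79. No library stood out by genes listed at 0: of 3915 genes over 10 FPKM in at least 17 libraries, none was at 0 in the other.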

How the data were processed

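RNA-Seq was made from poly-A RNA with a kit that does not mark strand. Per the paper's methods and the submitters' processing notes, the authors aligned reads to GRCm38/mm10 with STAR 2.7.1a, used only reads with a unique position, and quantified genes with StringTie 2.0. The deposited FPKM values and the deposited coverage (a signal, the mean read depth per base) were used. The deposited TPM was not used, since a value had failed in 2 libraries; FPKM was rescaled instead. Of 55471 genes listed, 2 with failed values were left out. Read depth and read length are not given in the sources used here.

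Log2(FPKM + 1) was modelled with limma 3.58.1 in R 4.3.3, using a trended prior, for genes that exceeded 1 FPKM in any library compared. Day was a factor over all days, and Benjamini-Hochberg adjustment covered every gene tested (threshold 0.05). The sums replaced the single copies in a second table. Exact permutation tests and sequence searches used Python 3.11.15 and Biopython 1.88. The fits were tested on simulated data. Groups came from the sample labels.

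All 8 genes and their sums are named, with at most 4 called genes of the largest change per other list, all activators, and the 10 genes most like the Zscan4 sum. The genes and lists were chosen with earlier results of these data known. Alternatives were another pseudocount, no filter (genes over 0 FPKM in a library), a filter in 2 libraries, TPM, median-ratio and quantile scaling, no trend, a fit of all 9 conditions, the paper's cutoff, all copies summed, a replicate block, and leaving out each library. The fold of means without each library was added after seeing the data.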

Additional observations from a re-analysis of the deposited data

Results flagged for a closer look

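The difference between OSKM-ESCs and 2iL-ESCs was not the same at days 18, 25 and 38 by the limma test of the interaction of medium and day. This held for the Zscan4 sum (adjusted p = 0.00068), Zscan4c (adjusted p = 0.00043), Zscan4d (adjusted p = 0.00061), Zscan4f (adjusted p = 0.0092), Zscan4e (adjusted p = 0.0098) and Zscan4b (adjusted p = 0.010). In each, every OSKM-ESC library was below every 2iL-ESC library at each day, so the size of the difference varied on this scale and its direction did not. Of all genes tested, 37.9% were called in the interaction. With a pseudocount of 0.1, the calls of Zscan4b, Zscan4e and Zscan4f were lost (limma adjusted p = 0.079, 0.14 and 0.23). Conditions had 2 libraries each, too few to look for a library far from its group.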

How the results depend on the processing

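The Zscan4 sum kept its direction under every alternative run and its call in ESCs over all days, with log2 fold changes from -5.58 to -3.85, and from -3.98 to -3.71 when single libraries were left out. With no filter, 8 genes were called lower over all days, beside 13.9% of 28161 genes tested. Among days within OSKM-ESCs, 2 of the 8 were called, beside 3316 of 25263 genes. In iPSCs 0 were called, where no gene of 25331 was called (5014 had an unadjusted p under 0.05) and the Zscan4 sum stood at -5.41 on the log2 scale (limma adjusted p = 0.12). The interaction calls fell to 2 with a pseudocount of 0.1, beside 4890 of 14016 genes. In iPSCs, leaving out 1 clone gave log2 fold changes from -6.01 to -4.81 for the Zscan4 sum. A lone clone is then assumed to vary like the other group, and the calls lost without 2iL-iPSC clone 3 or clone 6 were not particular to these genes. The Tcstv sum in iPSCs was called in the fit of 9 conditions (log2 fold change -0.72). Dppa3 in iPSCs ranged from -0.58 to 0.42 with 1 clone left out, and was above 0 without OSKM-iPSC clone 1 (0.42) or 2iL-iPSC clone 3 (0.07). The causes were not tested. Rescaling to TPM moved the median log2 fold change of all genes at day 38 to 0.15.

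Same-numbered libraries of a day deviated together with r of 0.13, 0.09 and 0.01 at days 18, 25 and 38. With 2 libraries per medium and day this neither shows nor excludes a pairing, and no source states one. With a replicate block, the log2 fold change of the Zscan4 sum over all days was -3.85 (limma adjusted p = 1.2e-05), and 5 of the genes were called over all days, at each day and in the interaction. Among all genes, 3026 of 14016 were called lower over all days, and 4962 of 14016 in the interaction. At days 18, 25 and 38, 2678 of 12774, 3617 of 13098 and 3185 of 13142 were called lower. The 5 genes again passed the filter through 2iL-ESC libraries only, so their count is a description. Among the activators, the call of Dppa4 was lost (adjusted p = 0.060).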

Other observations

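Within the Zscan4 cluster the files list 44 other genes, of which 31 were at 0 in every library and 1, Gm45551 (chr7:11478208-11479567, GRCm38), exceeded 1 FPKM in a library. Gm45551, chosen after its values were seen, was listed at 0 in the 6 OSKM-ESC libraries and both OSKM-iPSC clones, and in 2iL-ESCs it measured 0.904 and 0.562 FPKM at day 18, 0.287 and 0 FPKM at day 25, and 0.397 and 0.337 FPKM at day 38. In 2iL-iPSC clones 3 and 6 it measured 1.74 and 1.41 FPKM. Its 2iL values thus had the order of the Zscan4 sum between iPSCs and ESCs, with 1 library of day 25 at the level of the OSKM libraries.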
